A study of Mus musculus with 17 samples.

Results

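The 10 genes described here mark the principal cells of the collecting duct, and their transcripts were measured by RNA sequencing of mouse kidney cortex. They were chosen by gene name, as Aqp2, Aqp3, Aqp4, Avpr2, Scnn1a, Scnn1b, Scnn1g, Hsd11b2, Fxyd4 and Gata3, and all 10 were found among the 48795 genes of the count table. The 17 samples were 5 WT, 5 GCERAd, 3 TRACK and 4 GCERAdT cortices, labelled as separate mice, although the labels also give fewer than 5 mice per cohort for dissection. WT 1 and 2 may be repeat libraries of the same mouse, as may GCERAd 2 and 3. The main tests and the SDs count each of them as a separate mouse. WT mice are labelled as wild type. GCERAd mice carried homozygous floxed ATF4 alleles and Ggt/CreER, in which a part of the Ggt1 promoter drives a tamoxifen-inducible Cre recombinase in proximal tubules. From an age of 6 weeks they were injected on 2 days with tamoxifen (20 mg/mL). The study's methods give a fast of 16 h in metabolic cages, 1 month after the first injection, for mice in general and not for GCERAd alone. TRACK is a transgenic model of cancer of the kidney, made by expressing an active hypoxia-inducible factor in proximal tubules, and GCERAdT is labelled as TRACK with ATF4 KO. The age and tamoxifen treatment of TRACK and GCERAdT mice, and any vehicle or tamoxifen for WT mice, are not given in the sources used here.

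Principal cells reabsorb water and sodium in the connecting tubule and collecting duct under the control of vasopressin and aldosterone. Vasopressin binds the V2 receptor, encoded by Avpr2, on the basolateral side, and the resulting cAMP brings vesicles holding aquaporin-2 to the apical membrane and raises Aqp2 transcription. Water leaves the cell through aquaporin-3 and aquaporin-4, while sodium enters through the epithelial sodium channel, built from the subunits of Scnn1a, Scnn1b and Scnn1g, and leaves through the sodium pump, which the product of Fxyd4 modulates. The enzyme of Hsd11b2 inactivates glucocorticoids so that the mineralocorticoid receptor answers to aldosterone, and Gata3 encodes a transcription factor of the collecting system. Several of these genes are also known from other segments, such as Avpr2 from the thick ascending limb and Aqp4 from the straight proximal tubule of mice. Neither deletion of ATF4 nor the TRACK transgene is aimed at principal cells, so the question put to these data was how transcripts that mark an untargeted cell type stood in each cortex. Aqp4 is a limit to this, because both are aimed at proximal tubules, where it is also known. In bulk tissue, fewer cells of a type and less RNA per cell cannot be told apart.

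The 250 bases before the start of Aqp2 and of Avpr2, the genes of the water channel that vasopressin controls and of its receptor, are shown because the 2 genes are a target and the receptor of 1 pathway and were both lower in GCERAd and in TRACK than in WT. RefSeq windows (GRCm38.p6, 250 bases before to 50 after each start) were matched for 7 of the 10 genes, and Aqp4, Scnn1a and Hsd11b2 were missing. 4 motifs were searched on both strands: TGATGNAA, of the kind bound by ATF4 with C/EBP proteins, TGACG, the core of the cAMP response element, AGATAA, bound by GATA factors, and TGTTCT, a core of the hormone response element of steroid receptors. Capitals mark their matches, and both sequences run 5′ to 3′ on the plus strand, Aqp2 from chr15:99578806-99579055 and Avpr2 from chrX:73891852-73892101.
Aqp2: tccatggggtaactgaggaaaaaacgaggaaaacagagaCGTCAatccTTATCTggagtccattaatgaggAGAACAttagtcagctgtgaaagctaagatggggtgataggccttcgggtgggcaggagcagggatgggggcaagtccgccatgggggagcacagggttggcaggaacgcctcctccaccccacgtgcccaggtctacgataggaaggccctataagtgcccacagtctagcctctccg
Avpr2: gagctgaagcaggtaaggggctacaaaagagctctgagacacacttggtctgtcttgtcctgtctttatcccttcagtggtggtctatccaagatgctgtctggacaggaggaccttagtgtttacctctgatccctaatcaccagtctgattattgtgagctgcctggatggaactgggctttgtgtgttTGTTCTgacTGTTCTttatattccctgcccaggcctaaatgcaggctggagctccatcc
In Aqp2 all 3 matches read on the opposite strand, TGACG from 211 to 207, AGATAA from 202 to 197 and TGTTCT from 179 to 174 bases before the start. Avpr2 held TGTTCT on its own strand from 59 to 54 and from 50 to 45 bases before the start. TGATGNAA was in 0 of the 7 members' windows and in 3.969% of all 32851 windows. TGACG was in 1 of 7 members' windows (20.81% of all windows), AGATAA in 1 (11.18%) and TGTTCT in 2 (18.97%). A match of letters is a description and shows no binding.

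Atf4, the targeted gene, was checked first. Its level, in CPM (counts set to a common library total after TMM scaling, which corrects for composition), was 79.0, 74.4, 82.3, 86.4 and 100.1 CPM in WT 1 to 5 and 73.1, 56.0, 57.7, 63.2 and 77 CPM in GCERAd 1 to 5, lower in GCERAd with overlapping groups (log2 fold change -0.38, SE 0.11, adjusted p = 0.0218, edgeR). That call was lost without GCERAd 3 (adjusted p = 0.0527) and without WT 5 (adjusted p = 0.0559). In TRACK 1 to 3 it was 93.8, 79.8 and 77.2 CPM, and in the libraries labelled GCERAdT 1 to 4 it was 79.6, 93.1, 92.8 and 104.2 CPM. The latter were not lower (log2 fold change 0.17, SE 0.11, adjusted p = 0.367), so Atf4 went against that label, and GCERAdT below means the libraries so labelled. Atf4 was higher in GCERAdT than in GCERAd without overlap (log2 fold change 0.52, SE 0.11, adjusted p = 0.0108, edgeR). GCERAdT over TRACK minus GCERAd over WT was also called for Atf4 (0.55, SE 0.16, adjusted p = 0.021). Counts per gene do not separate exons, and cortex holds cells in which Cre is not active.

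Some facts of the libraries move with the groups. Total counts lay between 53688512 and 71364561 in all samples, with ranges that overlapped between groups. Y-linked Ddx3y had 0 counts in every WT library and 49.8 to 80.3 CPM in each of the other 12, while Xist was at 148.7 to 417.8 CPM in WT and at 0 to 6.1 CPM in the others. The comparisons with WT therefore cannot be told apart from a comparison between sexes, whereas GCERAdT, TRACK and GCERAd were alike in these transcripts. Processed pseudogenes took less than 0.05% of the counts of WT 1, 3, 4 and 5, GCERAd 1 and 2 and GCERAdT 1 and 2 (library kind A) and more in all other libraries (kind B), which include all 3 TRACK libraries. Mitochondrial transcripts took 17.1% to 19.1% of the counts in WT, above every other library, 11.6% to 12.3% in TRACK and 12.0% to 15.0% in GCERAdT. They took 15.1% to 16.3% in GCERAd 1 to 3 and 12.4% and 12.5% in GCERAd 4 and 5, which stand apart below. The part of this share in the members' levels was not tested.

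The 10 genes lie on 8 chromosomes of GRCm38. Aqp2 (ENSMUSG00000023013) spans chr15:99579055-99584547, Aqp3 (ENSMUSG00000028435) chr4:41092722-41098183 and Aqp4 (ENSMUSG00000024411) chr18:15389496-15410982. Avpr2 (ENSMUSG00000031390) lies at chrX:73892102-73895502, and 2347 of its 2886 exon bases are also exon of Arhgap4 on the opposite strand, a gene with at most 3.13 CPM in any sample. Scnn1b (ENSMUSG00000030873, chr7:121865038-121918514) and Scnn1g (ENSMUSG00000000216, chr7:121734479-121768475) are neighbours, and Scnn1a (ENSMUSG00000030340) lies apart at chr6:125320659-125344943. Hsd11b2 (ENSMUSG00000031891) spans chr8:105518755-105523988, Fxyd4 (ENSMUSG00000004988) chr6:117933559-117937692 and Gata3 (ENSMUSG00000015619) chr2:9857078-9890034. Gata3 shares 155 of its 3978 exon bases with Gm13256 on the opposite strand and 77 with 9230102O04Rik on its own. The strand setting of the counting is not stated, so reads of such overlapping exons cannot be assigned with certainty.

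Every member was detected in every library. Per kilobase of exon, the levels in WT ran from 369 ± 41.0 FPKM for Aqp2 (SD, n = 5) through 111 ± 9.01 FPKM for Aqp3, 92.9 ± 11.9 FPKM for Hsd11b2 and 39.97 ± 3.62 FPKM for Scnn1a. Scnn1g (18.9 ± 2.93 FPKM), Scnn1b (17.5 ± 0.951 FPKM) and Aqp4 (17.1 ± 6.43 FPKM) followed and did not differ beyond their spread. Fxyd4 (12.5 ± 1.88 FPKM), Avpr2 (8.30 ± 1.14 FPKM) and Gata3 (3.25 ± 0.329 FPKM) were lowest. In GCERAdT the order was another, with Aqp2 at 88.6 ± 40.1 FPKM (SD, n = 4) beside Hsd11b2 at 77 ± 10.8 FPKM, and with Aqp4 at 28.6 ± 9.87 FPKM level with Scnn1a at 28.5 ± 4.71 FPKM. The members' summed level was 1244 to 1374 CPM in WT, 630 to 894 CPM in GCERAd, 763 to 877 CPM in TRACK and 724 to 820 CPM in GCERAdT, so no other library reached the WT range.

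**Figure D1:**
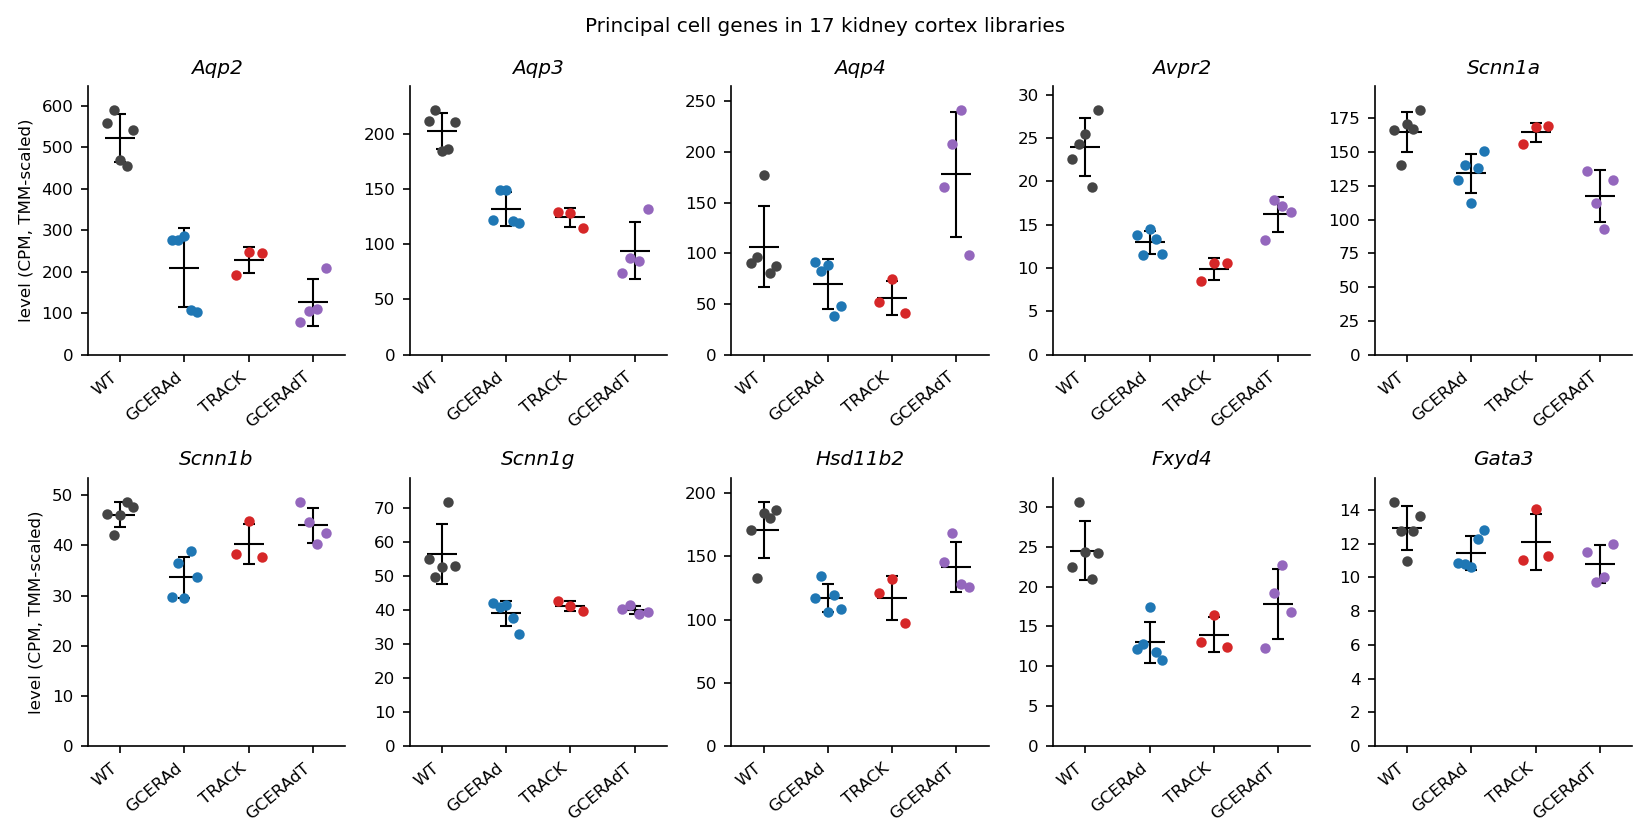
Level of each of the 10 genes (y axis, CPM after TMM scaling, from 0) in each library, by group (x axis). Points are libraries, long bars the mean and whiskers the SD. For Aqp2, Aqp3, Avpr2 and Scnn1g every WT point lies above all points of the other 3 groups, whereas the highest mean of Aqp4 is that of GCERAdT (178 CPM).

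Compared with WT, GCERAd cortices had lower levels of 8 of the 10 genes (edgeR's quasi-likelihood test, Benjamini-Hochberg adjusted p at most 0.05), and none was higher. Of all 11581 genes tested, 27.6% were called, 14.1% as higher and 13.5% as lower. The groups did not overlap for 6 members, against 20% of all genes in either direction. The median log2 fold change of the 10 was -0.58, beside a median of -0.00 over all genes. Compared with WT, TRACK cortices had lower levels of 7 of the 10 genes, and again none was higher, where of 11967 genes 45.6% were called, 23% as higher and 22.6% as lower. All 7 were without overlap (44.3% of all genes in either direction), and the members' median was -0.63 against -0.01 for all genes. With library kind as a covariate, which rests on WT 2 as the only WT library of kind B, 4 members were called. GCERAd against WT and TRACK against WT share the WT samples.

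In GCERAdT against TRACK, of the 10 genes 2 were called higher (Aqp4 and Avpr2) and none lower, where of 11928 genes 7.09% were called, 2.81% as higher and 4.28% as lower. The count rested on single libraries, with 0 members called without TRACK 1, 1 without GCERAdT 2 and 5 without GCERAdT 4, where Aqp2, Aqp3 and Scnn1a were called lower. Groups were without overlap for 3 members (22.9% of all genes). GCERAdT against GCERAd gave 2 genes called higher (Aqp4 and Scnn1b), where of 11816 genes 19.2% were called, 9.39% as higher and 9.79% as lower, and 2 members without overlap (19.5% of all genes). With the replicate number as a block 5 members were called, Aqp3 lower and Hsd11b2 and Fxyd4 higher in addition, and 3770 genes in place of 2266. The difference of contrasts, GCERAdT over TRACK minus GCERAd over WT, was tested with all 17 samples. It was positive and called for 6 members, Aqp4, Avpr2, Fxyd4, Hsd11b2, Scnn1b and Scnn1g, and negative for none, where of 12208 genes 25.1% were called, 12.3% as positive and 12.8% as negative.

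**Figure D2:**
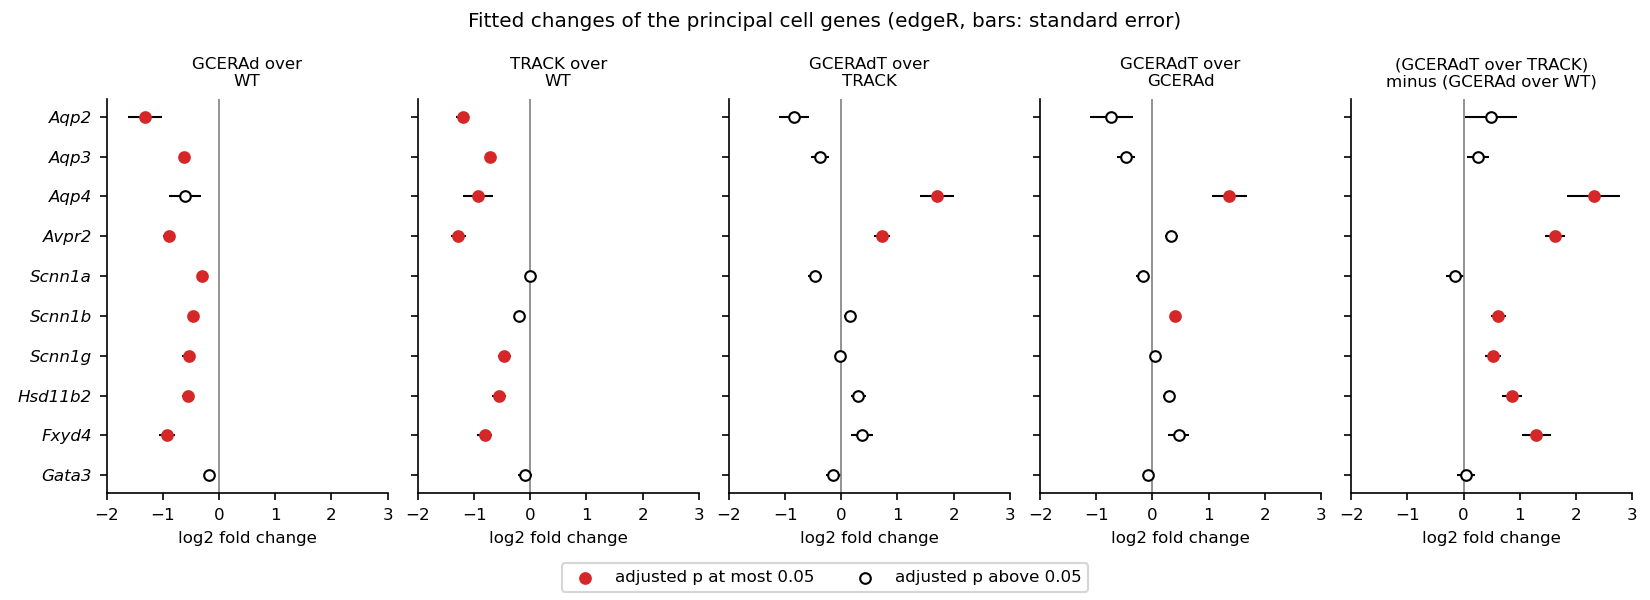
Fitted log2 fold change (x axis) of each gene (y axis) in the 4 comparisons and in the difference of contrasts (GCERAdT over TRACK minus GCERAd over WT); bars are the standard error, and filled points have an adjusted p of at most 0.05. Filled points lie left of 0 in both comparisons with WT (8 and 7 genes) and right of 0 in the other 3 panels (2, 2 and 6 genes).

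The receptor gene Avpr2 was lower in every library outside WT. It stood at 22.5, 24.2, 25.5, 19.3 and 28.2 CPM in WT, at 13.7, 11.5, 14.5, 13.3 and 11.6 CPM in GCERAd, at 8.5, 10.6 and 10.6 CPM in TRACK and at 13.2, 17.9, 17.2 and 16.4 CPM in GCERAdT. The order of means was WT, GCERAdT, GCERAd and TRACK, and of neighbours in it only GCERAdT and GCERAd overlapped. Avpr2 was 1.86-fold lower in GCERAd than in WT (log2 fold change -0.90, SE 0.11, adjusted p = 0.000136, edgeR) and 2.43-fold lower in TRACK than in WT (-1.28, SE 0.13, adjusted p = 6e-05). In GCERAdT it was 1.66-fold higher than in TRACK (log2 fold change 0.73, SE 0.14, adjusted p = 0.0156). This call was lost without GCERAdT 2 (adjusted p = 0.0535) and without TRACK 1 (adjusted p = 0.0621). GCERAdT over GCERAd did not pass (0.34, SE 0.12, adjusted p = 0.0662). GCERAdT over TRACK and GCERAd over WT differed by 1.63 (SE 0.18, adjusted p = 8.05e-06).

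Aqp2, the vasopressin-regulated apical water channel, had the highest level of the 10 genes in WT and the largest fall from WT to GCERAd. Its level was 560.0, 589.4, 469.1, 456.2 and 542.5 CPM in WT, whereas GCERAd 1 to 3 had 276.8, 275.4 and 286.9 CPM and GCERAd 4 and 5 had 106.7 and 102.4 CPM. TRACK libraries had 191.5, 246.5 and 244.9 CPM, and GCERAdT libraries 77.7, 106.3, 110.8 and 208.3 CPM. All 12 libraries of the other groups lay below the lowest WT library, while those 3 groups overlapped with one another. Aqp2 was 2.50-fold lower in GCERAd than in WT (log2 fold change -1.32, SE 0.30, adjusted p = 0.00663, edgeR) and 2.30-fold lower in TRACK than in WT (-1.20, SE 0.12, adjusted p = 4.82e-05). Within library kinds the log2 ratio of GCERAd over WT was -0.88 in kind A (2 against 4 libraries) and -1.83 in kind B (3 against 1), the latter holding GCERAd 4 and 5.

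Between GCERAdT and TRACK, Aqp2 did not pass the test (log2 fold change -0.84, SE 0.27, adjusted p = 0.0964). It was called at -1.18 without GCERAdT 4 (adjusted p = 0.0049), and at -0.85 with every library kept and no FPKM minimum (adjusted p = 0.016). GCERAdT against GCERAd gave -0.73 (SE 0.39, adjusted p = 0.223), and -1.13 without GCERAd 4 and 5 (adjusted p = 0.0108). Within kinds, the log2 ratio of GCERAdT over GCERAd was -1.59 in kind A and -0.05 in kind B. For Aqp2 the difference of contrasts was not called (0.49, SE 0.46, adjusted p = 0.461).

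Aqp3, the basolateral water and glycerol channel of the same cells, was lower in every library outside WT but by a smaller factor. WT libraries had 211.2, 221.0, 184.4, 185.6 and 210.2 CPM, GCERAd libraries 121.9, 148.5, 148.6, 121.2 and 119.1 CPM, TRACK libraries 129.4, 128.2 and 114.6 CPM and GCERAdT libraries 73.9, 87.1, 84.2 and 131.4 CPM. The fall from WT was 1.54-fold in GCERAd (log2 fold change -0.63, SE 0.10, adjusted p = 0.000623, edgeR) and 1.64-fold in TRACK (-0.71, SE 0.09, adjusted p = 0.000172). GCERAdT 1 to 3 lay below every TRACK and GCERAd library and GCERAdT 4 above all TRACK libraries, and GCERAdT over TRACK was not called (-0.38, SE 0.17, adjusted p = 0.196), but was without GCERAdT 4 (-0.57, adjusted p = 0.0108). GCERAdT over GCERAd gave -0.47 (SE 0.16, adjusted p = 0.0628). With the replicate block, this change was called at -0.54 (adjusted p = 0.0401).

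Aqp4, the other basolateral water channel, moved apart from Aqp2 and Aqp3. In WT it stood at 90.3, 96.2, 177.3, 80.6 and 87.6 CPM, with WT 3 far above the rest. GCERAd 1 to 3 had 91.3, 82.8 and 88.3 CPM, within the WT range, and GCERAd 4 and 5 had 38.0 and 47.7 CPM. TRACK had 51.6, 74.7 and 41.2 CPM, below all WT libraries, and GCERAdT had 165.2, 207.5, 241.1 and 98.3 CPM, above all TRACK and all GCERAd libraries. Aqp4 was not called in GCERAd against WT (log2 fold change -0.61, SE 0.28, adjusted p = 0.129, edgeR). It was 1.91-fold lower in TRACK than in WT (-0.93, SE 0.27, adjusted p = 0.0188), a call lost without TRACK 1 (adjusted p = 0.0664) and without TRACK 3 (adjusted p = 0.0693), and also once library kind was a covariate (adjusted p = 0.201).

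GCERAdT had 3.25-fold more Aqp4 than TRACK (log2 fold change 1.70, SE 0.31, adjusted p = 0.0121). Without TRACK 1 the change was 1.64 and just missed the threshold (adjusted p = 0.0514). It had 2.59-fold more than GCERAd (1.37, SE 0.31, adjusted p = 0.0125), and within library kinds that log2 ratio was 1.098 in kind A and 1.55 in kind B. Its difference of contrasts was the largest among the 10 genes, at 2.32 (SE 0.47, adjusted p = 0.00212). Counts of whole cortex do not assign Aqp4 to principal cells or to the targeted proximal tubules, and its source was not tested.

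The ratio of Aqp2 to Aqp4 within a library, in CPM, does not depend on scaling between libraries. It was 0.47, 0.51 and 0.46 in GCERAdT 1 to 3 and 2.12 in GCERAdT 4, between 2.15 and 3.32 in GCERAd, between 3.30 and 5.95 in TRACK and between 2.65 and 6.20 in WT. All 4 GCERAdT libraries thus lay below all others, with GCERAdT 4 next to the lowest GCERAd library. The ratio of Aqp2 to Aqp3 was 2.46 to 2.67 in WT, 1.85 to 2.27 in GCERAd 1 to 3 and 0.88 and 0.86 in GCERAd 4 and 5. In those 2 libraries Aqp2 and Aqp4 were low together, while Aqp3 and Avpr2 were within the range of GCERAd 1 to 3 or close to it.

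**Figure D3:**
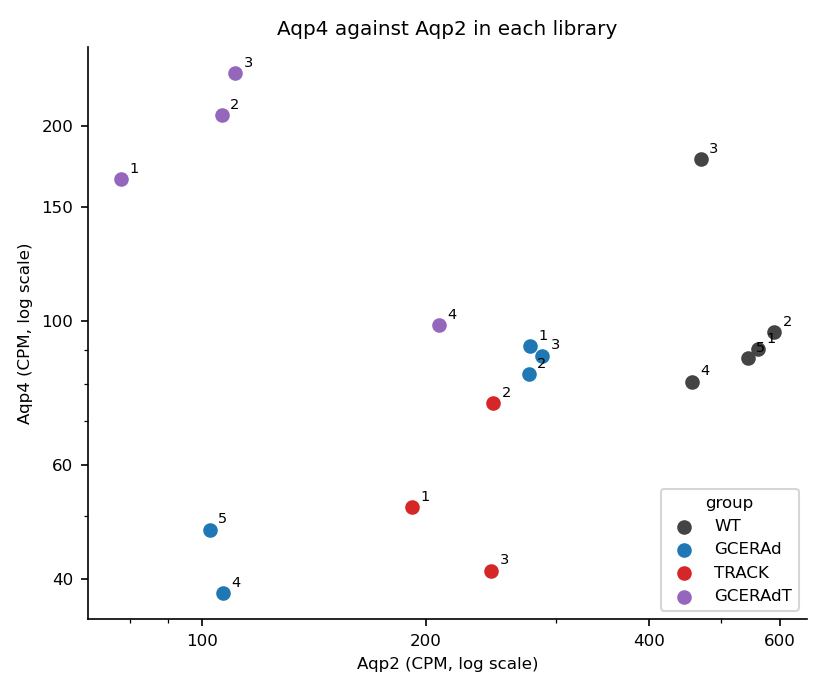
Aqp4 (y axis) against Aqp2 (x axis), both in CPM on log axes, with 1 point per library, coloured by group and numbered by replicate. GCERAdT 1 to 3 sit at the upper left (77.7 to 110.8 CPM of Aqp2, 165.2 to 241.1 CPM of Aqp4), and GCERAd 4 and 5 at the lower left with like Aqp2 and 38.0 and 47.7 CPM of Aqp4.

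The 3 subunits of the epithelial sodium channel had smaller fitted changes against WT than Aqp2 and Aqp3. Scnn1a, the alpha subunit, had 166.2, 140.5, 171.1, 167.0 and 180.9 CPM in WT and 129.4, 140.2, 112.3, 138.3 and 150.8 CPM in GCERAd. TRACK libraries had 156.3, 168.7 and 169.1 CPM, within the WT range, and GCERAdT libraries 136.1, 112.0, 92.7 and 129.4 CPM, below all WT and TRACK libraries. Scnn1a was 1.24-fold lower in GCERAd than in WT (log2 fold change -0.31, SE 0.09, adjusted p = 0.022, edgeR), a call lost once library kind was a covariate (adjusted p = 0.0528), without WT 1 (adjusted p = 0.0538) and without WT 5 (adjusted p = 0.0601). TRACK over WT gave -0.01 (SE 0.09, adjusted p = 0.957). GCERAdT over TRACK was -0.47 (SE 0.12) with no overlap and an adjusted p of 0.0528 by edgeR, against 0.00369 by DESeq2.

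Scnn1b, the beta subunit, had 46.3, 42.1, 46.1, 48.7 and 47.6 CPM in WT and 29.8, 36.4, 29.5, 38.9 and 33.6 CPM in GCERAd, all lower. It had 38.3, 44.9 and 37.7 CPM in TRACK and 48.6, 44.6, 40.3 and 42.5 CPM in GCERAdT, where it overlapped the WT range. Scnn1b was 1.38-fold lower in GCERAd than in WT (log2 fold change -0.47, SE 0.08, adjusted p = 0.00177, edgeR), and GCERAdT was 1.32-fold higher than GCERAd (0.40, SE 0.10, adjusted p = 0.0148). The latter call was lost without GCERAdT 1 (adjusted p = 0.0532). TRACK over WT did not pass (-0.20, SE 0.08, adjusted p = 0.0629), and the difference of contrasts was 0.62 (SE 0.13, adjusted p = 0.00259).

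Scnn1g, the gamma subunit, had 55.2, 49.9, 52.8, 71.9 and 52.9 CPM in WT and less in every other library. GCERAd libraries had 42.1, 40.9, 41.4, 37.6 and 33.1 CPM, TRACK libraries 42.6, 41.3 and 39.6 CPM and GCERAdT libraries 40.2, 41.6, 38.9 and 39.6 CPM, 3 groups that overlapped. The fall from WT was 1.46-fold in GCERAd (log2 fold change -0.54, SE 0.11, adjusted p = 0.00394, edgeR) and 1.38-fold in TRACK (-0.46, SE 0.11, adjusted p = 0.00862). With library kind as a covariate the change in TRACK was not called (adjusted p = 0.242), and only 1 WT library is of the kind of the TRACK libraries. GCERAdT over TRACK was -0.02 (SE 0.07, adjusted p = 0.908) and GCERAdT over GCERAd 0.05 (SE 0.08, adjusted p = 0.705). The difference of contrasts was 0.53 (SE 0.15, adjusted p = 0.0137), and it was not called once library kind was a covariate (adjusted p = 0.0639).

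Per kilobase, Scnn1a exceeded Scnn1b 1.78-fold, 1.60-fold, 1.47-fold and 1.94-fold in GCERAdT 1 to 4, below the 2.13-fold to 2.86-fold of all libraries of the other groups. These ratios stand within a library, so that scaling between libraries does not enter.

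Hsd11b2, which shields the mineralocorticoid receptor from glucocorticoids, had 170.6, 133.1, 184.1, 180.6 and 186.4 CPM in WT and 117.3, 134.2, 105.7, 119.1 and 108.4 CPM in GCERAd. In TRACK it had 120.8, 131.9 and 97.6 CPM and in GCERAdT 145.1, 168.2, 127.7 and 125.3 CPM. WT 2 and GCERAd 2 made the groups overlap, and GCERAdT bridged the other groups. Hsd11b2 was 1.47-fold lower in GCERAd than in WT (log2 fold change -0.56, SE 0.10, adjusted p = 0.00194, edgeR) and 1.47-fold lower in TRACK than in WT (-0.55, SE 0.13, adjusted p = 0.00613), the latter not called once library kind was a covariate (adjusted p = 0.355). GCERAdT over TRACK was 0.30 (SE 0.13, adjusted p = 0.199). GCERAdT over GCERAd was 0.29 (SE 0.11, adjusted p = 0.0875), and 0.26 and called with the replicate block (adjusted p = 0.0245). Between the contrasts the difference was 0.86 (SE 0.18, adjusted p = 0.0022).

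Fxyd4, a small regulator of the sodium pump, had 22.4, 30.6, 24.3, 21.0 and 24.2 CPM in WT, above the 12.2, 12.8, 17.5, 11.8 and 10.7 CPM of GCERAd and the 13.0, 16.5 and 12.4 CPM of TRACK. GCERAdT had 12.4, 19.3, 22.7 and 16.8 CPM and overlapped all other groups. Fxyd4 was 1.89-fold lower in GCERAd than in WT (log2 fold change -0.92, SE 0.14, adjusted p = 0.00072, edgeR) and 1.76-fold lower in TRACK than in WT (-0.81, SE 0.14, adjusted p = 0.00116). GCERAdT over TRACK gave 0.37 (SE 0.20, adjusted p = 0.276) and GCERAdT over GCERAd 0.47 (SE 0.19, adjusted p = 0.114), the latter 0.39 and called with the replicate block (adjusted p = 0.0362). Its difference of contrasts was 1.30 (SE 0.26, adjusted p = 0.00172).

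Gata3, the transcription factor, was called in none of the comparisons. It had 14.5, 12.7, 11.0, 12.8 and 13.6 CPM in WT, 10.9, 10.8, 10.6, 12.3 and 12.8 CPM in GCERAd, 11.0, 14.0 and 11.2 CPM in TRACK and 11.5, 9.7, 10.0 and 12.0 CPM in GCERAdT. The groups overlapped in each of the 4 comparisons and no test passed, with log2 fold changes of -0.18 (SE 0.10, adjusted p = 0.178) in GCERAd and -0.10 (SE 0.12, adjusted p = 0.541) in TRACK, both against WT.

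Genes around the members were described from lists. Beside the list counts below, the shares of all tested genes called were 27.6% in GCERAd against WT and 45.6% in TRACK against WT. They were 7.09% in GCERAdT against TRACK, 19.2% in GCERAdT against GCERAd and 25.1% in the difference of contrasts. Counts near those shares are no result about a list. In TRACK against WT, fitting library kind lowered the counts given below for vasopressin signalling (to 0 higher and 1 lower), mineralocorticoid signalling (6 and 0), other principal and connecting tubule cell genes (0 and 8), transcription factors (1 and 3), aquaporins (0 and 2) and FXYD genes (0 and 2). Of 18 tested genes of vasopressin signalling to cAMP and aquaporin-2 trafficking, 2 were higher and 3 lower in GCERAd than in WT (median log2 fold change 0.00). That was near the 27.6% of all genes called. Adenylate cyclase Adcy6 was lower (-0.50, SE 0.07, adjusted p = 0.000476), as were the vesicle protein gene Vamp2 (-0.50, SE 0.07, adjusted p = 0.000373) and the kinase anchor Akap7 (-0.52, SE 0.10, adjusted p = 0.00322), while Snap23 of the fusion machinery was higher (0.43, SE 0.09, adjusted p = 0.005). In TRACK against WT 4 were higher and 3 lower, in GCERAdT against TRACK 1 was lower, the cAMP phosphodiesterase Pde4d (-0.84, SE 0.11, adjusted p = 0.00284), and in GCERAdT against GCERAd 1 was lower. Between the contrasts 3 differed positively and 4 negatively.

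Of 17 genes of mineralocorticoid signalling and sodium channel regulation, 7 were higher and 6 lower in TRACK than in WT. Those higher included Fkbp5 (log2 fold change 1.77, SE 0.22, adjusted p = 0.000183), Tsc22d3 (1.41, SE 0.11, adjusted p = 7.71e-06), Per1 (1.29, SE 0.14, adjusted p = 8.99e-05) and Sgk1 (1.14, SE 0.16, adjusted p = 0.000322), which corticosteroids are known to induce, the last being the kinase that keeps the channel at the membrane. In GCERAdT 7 of the 17 were lower than in TRACK and none was higher. Fkbp5 was lower there by -2.09 (SE 0.29, adjusted p = 0.00384), Tsc22d3 by -1.44 (SE 0.09, adjusted p = 5.66e-05), Per1 by -1.19 (SE 0.17, adjusted p = 0.00435) and the deubiquitinase gene Usp2 by -1.73 (SE 0.11, adjusted p = 5.66e-05). In GCERAd against WT 2 were higher and 4 lower, led by St14, a membrane protease (-0.93, SE 0.13, adjusted p = 0.000453). In GCERAdT against GCERAd 4 were lower and none higher. Between the contrasts 3 differed positively and 6 negatively.

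Other genes of principal and connecting tubule cells resembled the members in direction. Of 13 tested, 11 were lower in TRACK than in WT and none higher (median -0.79), and 5 were lower in GCERAd and none higher (median -0.48). Kcnj1, the apical potassium channel, was lower in GCERAd (-0.91, SE 0.09, adjusted p = 4.69e-05) and in TRACK (-1.28, SE 0.11, adjusted p = 1.82e-05). Npnt, a matrix protein of the collecting system, was lower in both (-1.17, SE 0.20, adjusted p = 0.00114, and -1.61, SE 0.20, adjusted p = 0.00019), and it was the 1 gene of 12 called in GCERAdT against TRACK, where it was higher (0.78, SE 0.13, adjusted p = 0.00908). In GCERAdT against GCERAd 1 was higher and 1 lower. The difference of contrasts was positive for 8 of 13 and negative for 1.

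Of the transcription factors of the collecting duct, 7 of 13 were lower in GCERAd than in WT, among them Grhl2 (-0.89, SE 0.12, adjusted p = 0.0003), Pax2 (-0.73, SE 0.18, adjusted p = 0.0108) and Gata2 (-0.53, SE 0.11, adjusted p = 0.00548), and none was higher. With library kind as a covariate 6 were lower, and Elf3 lost its call (adjusted p = 0.0543, edgeR). In TRACK 6 of 13 were lower and 1 higher, and of 12 tested 1 was higher in GCERAdT than in TRACK (Hoxd8, 0.41, SE 0.10, adjusted p = 0.0407, and up to 0.175 without TRACK 2) and 1 lower than in GCERAd. The difference of contrasts was positive for 5 of 13 and negative for none.

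Among aquaporins, the members included, 3 of 7 tested were lower in GCERAd than in WT, namely Aqp2, Aqp3 and Aqp6 of intercalated cells (-0.79, SE 0.15, adjusted p = 0.00244). In TRACK 5 of 8 were lower and Aqp8 higher (1.47, SE 0.28, adjusted p = 0.00199, and 0.0662 with library kind as a covariate). GCERAdT had 1 of 8 higher and 1 lower than TRACK, and 2 higher and 2 lower than GCERAd, where proximal tubule Aqp1 was lower (-0.60, SE 0.09, adjusted p = 0.00162). The difference of contrasts was positive for 1 and negative for 1 of 8. Of 5 FXYD genes, Fxyd4 alone was called in GCERAd against WT. In TRACK 2 were lower and 2 higher, Fxyd2 of the more proximal nephron being lower (-0.83, SE 0.08, adjusted p = 3.67e-05). None was called in GCERAdT against TRACK or GCERAd, and the difference of contrasts was positive for 1 and negative for 1.

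Markers of the other cells of the cortex were taken along. The same shares of all genes stand beside the marker counts, 27.6% in GCERAd and 45.6% in TRACK, both against WT. For GCERAdT they were 7.09% against TRACK and 19.2% against GCERAd, and 25.1% for the difference of contrasts. In GCERAd against WT, 6 of 9 intercalated cell, 5 of 7 thick ascending limb, 3 of 5 distal convoluted tubule and 6 of 9 thin limb and inner medulla markers were lower and none of these higher, whereas of 8 proximal tubule markers 2 were higher and none lower. With library kind as a covariate, 7 intercalated cell and 4 thick ascending limb markers were lower. Distal convoluted tubule and thin limb counts stayed, and 4 proximal tubule markers were higher. Calls were lost in some fits (edgeR), as Cldn16 without WT 3 (adjusted p = 0.0838) and Umod with repeat libraries summed (adjusted p = 0.0918). Car2 was lost there too (adjusted p = 0.052), and Slc4a9 and Wnk4 with the replicate block (adjusted p = 0.0604 and 0.0601). The summed level of intercalated cell markers was 1218 to 1324 CPM in WT and 903 to 1168 CPM in GCERAd, and that of thick ascending limb markers 6837 to 10173 and 4728 to 6765 CPM, in both cases without overlap. Within GCERAd, libraries 4 and 5 had 1168 and 1164 CPM of intercalated cell markers against 903 to 991 CPM in libraries 1 to 3, and 6765 and 6235 CPM of thick ascending limb markers against 4728 to 5474 CPM, so the 2 GCERAd libraries with the lowest Aqp2 were highest in both lists. Proximal tubule markers summed to 6532 to 8218 CPM in WT and 8176 to 11006 CPM in GCERAd. Slc14a2, the urea transporter gene of the inner medulla, was at 54.6 CPM on average in WT and 11.6 CPM in GCERAd (log2 fold change -2.24, SE 0.58, adjusted p = 0.0137). No intercalated cell, thick ascending limb or proximal tubule marker was at 0 in any library, and of the thin limb and inner medulla markers Slc6a12 was at 0 in TRACK 1. The part of these shifts in the lower levels of the principal cell genes was not tested.

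In TRACK against WT, 5 of 9 intercalated cell, 4 of 7 thick ascending limb and 4 of 5 distal convoluted tubule markers were lower and none higher, and of 9 thin limb and inner medulla markers 1 was higher and 3 lower. Of 8 proximal tubule markers 1 was higher and 3 lower, and all 5 endothelial markers were higher. With library kind as a covariate, 2 intercalated cell, 2 thick ascending limb, 2 distal convoluted tubule and 0 thin limb and inner medulla markers were called lower. Intercalated cell markers summed to 1090 to 1229 CPM in TRACK and thick ascending limb markers to 5175 to 7642 CPM, both overlapping WT. Proximal tubule markers summed to 4213 to 5151 CPM and endothelial markers to 506 to 546 CPM, the latter above the 268 to 314 CPM of WT. In GCERAdT against TRACK, 3 of 7 thick ascending limb and 1 of 5 distal convoluted tubule markers were higher, 1 of 8 thin limb and inner medulla markers was lower, and none of 9 intercalated cell or 8 proximal tubule markers was called. With library kind as a covariate, 1 thick ascending limb and 1 distal convoluted tubule marker were higher and 0 thin limb and inner medulla markers lower. The calls of Cldn10, Cldn16 and Cldn19 were each lost without TRACK 1 (adjusted p = 0.0941, 0.107 and 0.0742, edgeR), and without some other single libraries. Intercalated cell markers summed to 1087 to 1116 CPM in GCERAdT and thick ascending limb markers to 6071 to 6439 CPM, both overlapping the TRACK range, while Aqp4 was above that of TRACK. The part of the marker shifts in the members' changes was not tested.

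In GCERAdT against GCERAd, 1 of 9 intercalated cell and 2 of 7 thick ascending limb markers were higher, none of 5 distal convoluted tubule and of 7 thin limb and inner medulla markers was called, 4 of 8 proximal tubule markers were lower and 4 of 5 endothelial markers higher. In the difference of contrasts 3 of 9 intercalated cell, 4 of 7 thick ascending limb and 2 of 5 distal convoluted tubule markers were positive and none negative, 2 of 9 thin limb and inner medulla markers were positive and 1 negative, 1 of 8 proximal tubule markers was positive and 2 negative, and 3 of 5 endothelial markers were negative. Podocyte markers had 1 of 5 called lower in GCERAd and 1 higher and 1 lower in TRACK, both against WT, 1 lower in GCERAdT against TRACK, 1 higher in GCERAdT against GCERAd, and 2 positive and 1 negative in the difference. In GCERAd against WT 1 of 5 endothelial markers was higher, and in GCERAdT against TRACK 1 of 5 was lower. The former, Kdr, was not called without WT 3 (adjusted p = 0.0694, edgeR) and without some other single libraries. Urothelium markers stayed at a summed level of 2 to 22 CPM in every library, with Krt20 called higher in TRACK than in WT and lower in GCERAdT than in TRACK (the latter lost without TRACK 1, adjusted p = 0.104), at no more than 4.62 CPM on average in any group.

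**Figure D4:**
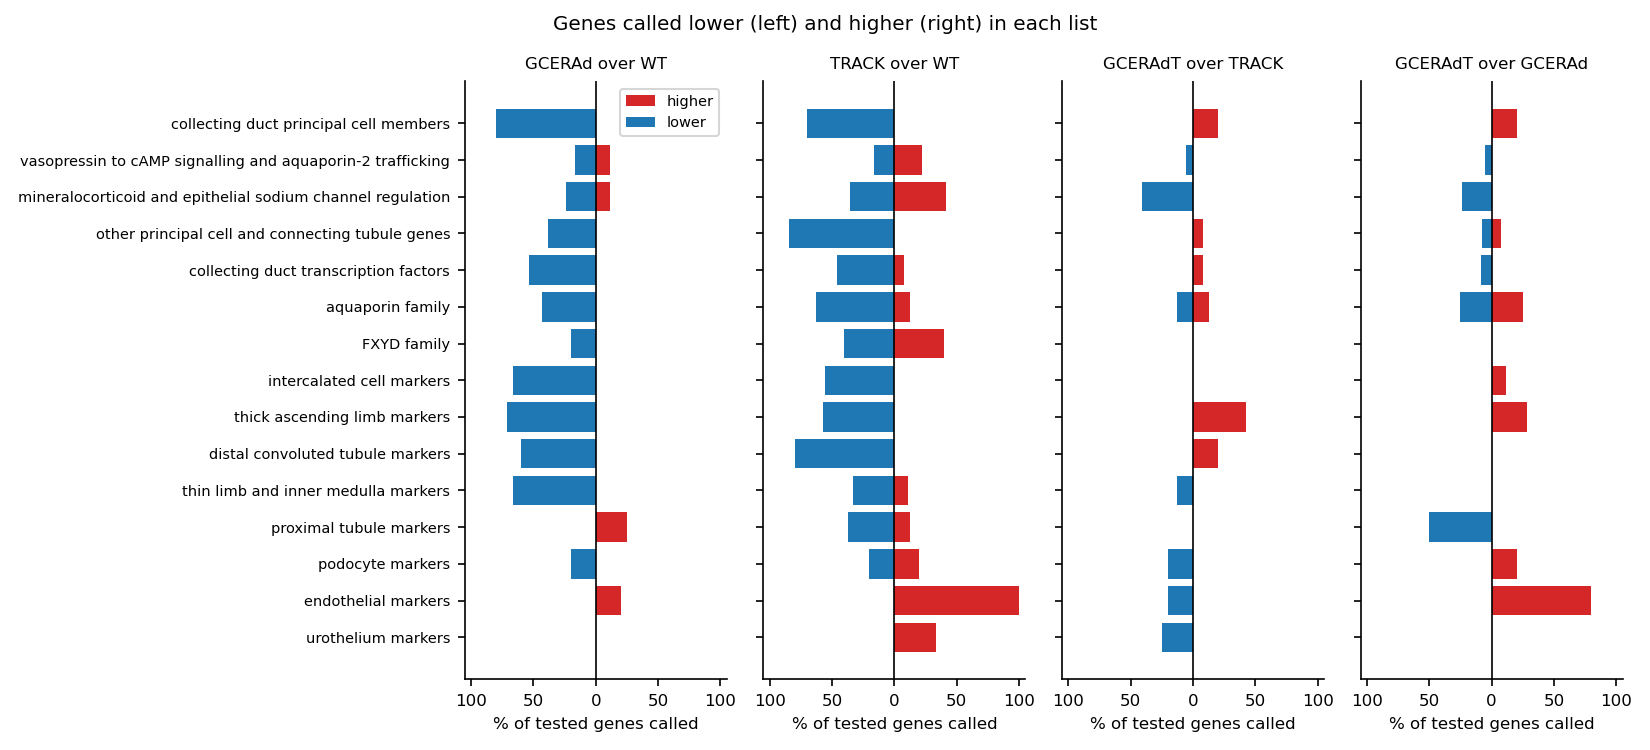
Share of the tested genes of each list (y axis) that were called lower (bars to the left of 0) or higher (bars to the right), in percent (x axis), for the 4 comparisons. The principal cell genes are called lower in 8 and 7 of 10 cases against WT and in none against TRACK or GCERAd, and distal tubule lists lean the same way against WT.

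Within groups the 10 genes did not vary as 1 block. After removing group means, the correlation between members over the 17 libraries was positive for 20 of 45 pairs and negative for 25, with a median of -0.08 and only 4 pairs above 0.5. The lowest was that of Scnn1a with Fxyd4 (-0.81) and the highest 0.73. These points share their libraries and kinds, and the values are descriptions. With the mean standardised level of the 10 genes, the genes of most similar pattern over all 17 libraries were Hsd17b14 (Pearson's r 0.97), Mfsd4a (0.94), Bhmt (0.94), Large2 (0.93) and Prom1 (0.93). All 5 separated WT from the rest, such as Bhmt with 106 ± 34.1 CPM in WT (SD, n = 5) and 5.89 ± 2.00 CPM in GCERAd. With group means removed the most similar genes were others, BC049762 (0.80), Dcaf11 (0.76), Slc25a35 (0.75), Slc2a4 (0.75) and Lpar3 (0.75).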

How the data were processed

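The data were 17 mRNA sequencing libraries of mouse kidney cortex, each labelled as a mouse. The deposited table held read counts per gene without normalization, which the authors made with bcl2fastq 2.20, Cutadapt, STAR (GRCm38) and HTSeq, and the libraries were prepared with a strand-specific kit. Counting settings and the annotation release are not given in the sources used here. Groups came from the sample labels. RCC4 cells were not analysed here.

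Counts were tested in R 4.3.3 with edgeR 4.0.16 (quasi-likelihood, TMM scaling, Benjamini-Hochberg adjustment over all genes tested), each comparison on its own samples and the difference of contrasts on all 17. A gene was tested when its mean FPKM, from counts and GENCODE M21 merged exons, was at least 1 in either group, which all 10 members passed in each comparison, and it was called at an adjusted p of at most 0.05. Lengths were found for 48435 identifiers and none for 360. Levels are CPM scaled over all 17 libraries, or FPKM. Listed genes below that minimum were not counted as tested. The procedure was tested on simulated data. Motif windows came from RefSeq (GRCm38.p6).

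The members and lists were chosen with earlier results of these data known. Outside the members, up to 4 called genes per list and comparison with the largest changes were eligible to be named. Replicate numbers are mouse numbers in the labels. Deviations of same-numbered GCERAdT and GCERAd libraries from their group means correlated at 0.43, 0.56, 0.52 and 0.39, above the 0.1 that was taken to pair libraries, so blocked values are given there. In both groups numbers 1 and 2 are of library kind A and numbers 3 and 4 of kind B. Same-numbered libraries thus also share their kind, and pairing of mice was not shown. The other comparisons showed no pairing. P-values measure the spread between these libraries.

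Alternatives were DESeq2 1.42.0, RLE scaling, other minimums, all 17 samples in 1 fit, the replicate block, library kind as a covariate, possible repeat libraries summed (WT 1 and 2, GCERAd 2 and 3), each library left out and, added after seeing the data, GCERAd 4 and 5 left out together.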

Additional observations from a re-analysis of the deposited data

Results flagged for a closer look

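Aqp4 in WT 3 stood far from the other WT libraries, at 177.3 CPM against 80.6 to 96.2 CPM, and the same library had the highest sum of thick ascending limb markers among all 17 (10173 CPM). Scnn1g in WT 4 stood apart at 71.9 CPM, where the other WT libraries had 49.9 to 55.2 CPM. These were 2 of 30 groups of member values examined by Dixon's test, of which chance flags about 1 in 20. Leaving out WT 3 took the change of Aqp4 in GCERAd against WT from -0.61 to -0.36 on the log2 scale (edgeR, adjusted p = 0.327).

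For 6 members the change between GCERAdT and TRACK differed from that between GCERAd and WT by the interaction term (edgeR, adjusted p at most 0.05). The difference was 2.32 on the log2 scale for Aqp4, 1.63 for Avpr2, 1.30 for Fxyd4, 0.86 for Hsd11b2, 0.62 for Scnn1b and 0.53 for Scnn1g. For Avpr2, GCERAd over WT was -0.90 and GCERAdT over TRACK 0.73, while for Scnn1g they were -0.54 and -0.02. WT and GCERAd libraries differ in sex-linked transcripts and GCERAdT and TRACK libraries do not, so the difference of contrasts cannot be told apart from that of sex.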

How the results depend on the processing

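Of 960 values for single genes and levels under an alternative, 899 were kept. Fitted changes were kept when direction and side of the threshold held, and levels when CPM from raw totals lay within 1 SD. Of 184 counts, 160 stayed within 1.5 times. With the replicate block, 2106 genes were called in GCERAd against WT, 3431 in TRACK against WT and 3770 in GCERAdT against GCERAd, with 4 members called in GCERAdT against TRACK and 5 in GCERAdT against GCERAd, and Scnn1a in TRACK against WT moved to 0.054 and Scnn1g in GCERAdT against GCERAd to -0.0017. Correlation by number was found in the data for GCERAdT with GCERAd, where 3 of 4 libraries correlated best with their own number, and not elsewhere. Libraries of the same number in these groups also share their library kind, so this does not show pairing of mice. With library kind as a covariate, 462 genes were called in GCERAdT against TRACK, 2776 genes and 4 members in TRACK against WT, and 4 members in GCERAdT against GCERAd, and Scnn1a in TRACK against WT was 0.22. DESeq2 called 1562 genes in GCERAdT against TRACK and 4 members in GCERAdT against GCERAd, and gave Scnn1a in TRACK against WT 0.00102, and RLE scaling 0.00101. With no FPKM minimum 4 members were called in GCERAdT against TRACK, and with all 17 samples in 1 fit 5 in GCERAdT against GCERAd. Without GCERAd 4 and 5, 4 members were called in GCERAdT against GCERAd, with Scnn1g at -0.027 and Gata3 at 0.028. The cause was not tested.

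Leaving out 1 library at a time gave 2477 to 3246 genes and 7 to 8 members called in GCERAd against WT, 379 (without GCERAdT 2) to 1424 (without GCERAdT 4) genes and 0 to 5 members in GCERAdT against TRACK, 4101 to 6041 genes and 6 to 8 members in TRACK against WT, 1427 (without GCERAdT 2) to 2336 genes and 2 to 3 members in GCERAdT against GCERAd, and 2205 to 3303 genes and 6 members in the difference. Scnn1g in GCERAdT against TRACK lay between -0.039 and 0.000949, Scnn1a in TRACK against WT between -0.058 and 0.033 and Gata3 in the difference between -0.021 and 0.17. Every member had counts in every library, and depth was not varied.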
